A study of Homo sapiens with 12 samples.

Results

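The genes described here act in the lysosome and in autophagy. They are 46 listed human symbols that were matched to Ensembl identifiers, by a rule that uses no measured value, and 45 of them were found among the 17508 genes with counts. PSAP was not analysed here. The samples were TYK-nu cells, a line of high-grade serous ovarian carcinoma, grown with 15 μM cisplatin, a platinum drug that crosslinks DNA, or with DMSO, the solvent control. Each treatment was applied for 24 h or 72 h with 3 replicates, which gave 12 libraries in 4 groups, and no agent other than cisplatin or DMSO is named. RNA was selected for poly(A) tails, sequenced in pairs on a single lane, and counted separately over the exons and the introns of each gene. The methods say that triplicates of the cells were grown and treated, and in general that experiments were independently repeated. They do not say how separate the cultures behind the 3 libraries of a group were. The p-values therefore measure the spread between these libraries, which may be technical. A shared replicate number has no stated meaning either.

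Lysosomes digest proteins, glycans and lipids with hydrolases that work at acidic pH, and the vacuolar proton pump (V-ATPase) of the lysosomal membrane keeps the lumen acidic. Autophagy brings cytoplasm to them: a kinase complex around ULK1 and a lipid kinase complex around BECN1 start a membrane that is extended by the ATG12 and ATG8 conjugation systems, while receptors such as SQSTM1 (p62) tether cargo to ATG8 proteins. The transcription factors TFEB and TFE3 bind E-boxes in the promoters of many of these genes, and the kinase mTORC1, which sits on the lysosome when nutrients are plentiful, keeps both factors in the cytoplasm.

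Depth, as the sum of all exon and intron counts, ran from 18526830 to 68753262 per library, of which 6.26% to 7.17% were intron counts. The level of a gene is given below as normalized exon counts (CPM), scaled to 1000000 exon counts per library after TMM normalization, and intron CPM is the same for intron counts. These levels are not divided by gene length and were compared between libraries, not between genes. Of the markers of the labelled cell type, KRT18, an epithelial keratin, lay between 133 and 181 CPM and KRT8 between 11.02 and 34.5. WT1, a factor of serous tumours, lay between 1.59 and 4.19 CPM, while PAX8 had at most 2 exon counts in a library, KRT7 at most 8 and CDH1 none in any library. KRT19 lay between 1.19 and 2.79 CPM and EPCAM, an epithelial adhesion molecule, between 0.117 and 1.68. VIM, a mesenchymal filament, lay between 6775 and 8454 CPM and FN1, fibronectin, between 34.3 and 55.4, while CDH2, the mesenchymal cadherin, had no exon count in any library. MUC16 and MSLN were not analysed here. Summed over 6 markers of other cell types, the levels without TMM were 2738 to 2827 in DMSO and 2752 to 2816 in cisplatin at 24 h, and 1970.5 to 2082 in DMSO and 2064 to 2170.5 in cisplatin at 72 h. Nearly all of that was PECAM1, an endothelial adhesion molecule, at 1350.3 to 2491 CPM and lower at 72 h, and CD68, a macrophage marker that is itself a lysosomal membrane protein, at 322 to 657 CPM and higher at 72 h. PTPRC, the pan-leukocyte marker, had no exon count in any library, CD163 and MYH11 had at most 1 and 3, and VWF reached 1.20 CPM. The part of PECAM1 and CD68 in the results below was not tested.

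Together the 45 genes took a larger share of the exon counts at 72 h than at 24 h, with DMSO and with cisplatin. The share was 0.475, 0.470 and 0.462% in the DMSO libraries at 24 h and 0.696, 0.684 and 0.691% in those at 72 h. In cisplatin it was 0.467, 0.479 and 0.479% at 24 h and 0.679, 0.698 and 0.681% at 72 h. The times did not overlap in either treatment, while the treatments overlapped at both times. The means were 0.469% ± 0.00660 (SD, n = 3) for DMSO and 0.475% ± 0.00704 for cisplatin at 24 h, and 0.690% ± 0.00628 and 0.686% ± 0.0103 at 72 h. SQSTM1 alone held 11.1 and 11.4% of these counts in DMSO and in cisplatin at 24 h, and 24.7 and 23.6% at 72 h. Without it the mean shares were 0.417 and 0.421% at 24 h and 0.520 and 0.524% at 72 h, and the times again did not overlap. In a bulk sample, a change in the number of cells of a kind and a change in RNA per cell cannot be told apart.

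**Figure D1:**
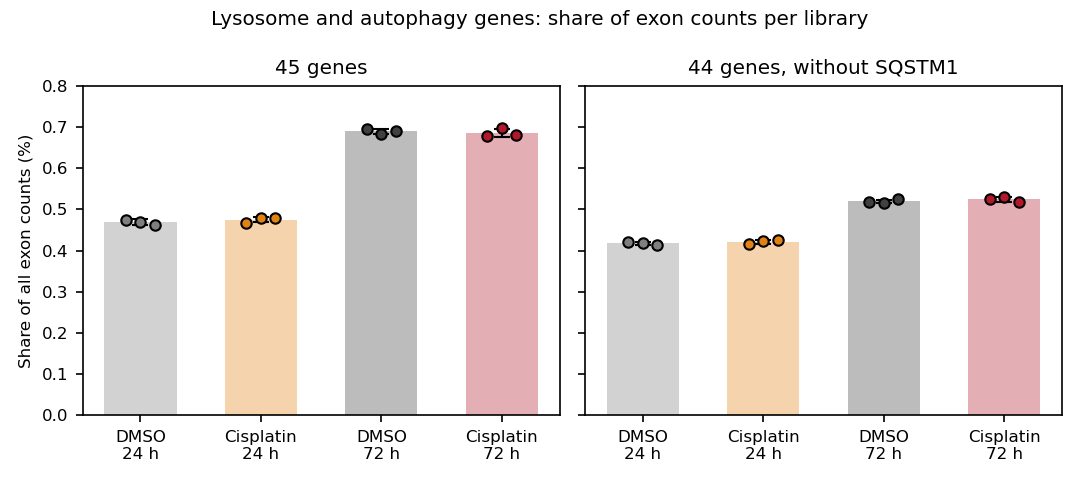
Share of all exon counts (%) taken by the 45 genes (left) and by the 44 genes other than SQSTM1 (right) in DMSO and cisplatin at 24 and 72 h. Bars are means of 3 libraries, error bars SD and points single libraries; the 72 h libraries lie above the 24 h libraries in both panels.

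The effect of cisplatin was read first as the level of exon counts against DMSO at the same time. None of the 45 genes passed an adjusted p of 0.05 at 24 h or at 72 h (edgeR quasi-likelihood test, Benjamini-Hochberg adjustment over 10444 genes). At 24 h, 0 of the 45 had an unadjusted p under 0.05, against 260 of all genes, and 0 genes of the table, or 0%, were called. At 72 h, 2 of the 45 had one, against 1311 of all genes, and 3 genes or 0.0287% were called, all of them lower. Without replicate 3 of DMSO at 72 h 72 genes of the table were called, and without replicate 3 of cisplatin 0, with none of the 45 in either case. DESeq2 called none of the 45 at either time, with 0 and 3 at an unadjusted p under 0.05, while it called 0 and 55 genes of the table. The members' median log2 change was 0.01 at 24 h and -0.01 at 72 h, beside -0.00047 and 0.00052 for all genes tested. All changes below are on the log2 scale, each with the standard error (SE) of the fit.

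These differences were bounded closely for most of the genes. The 95% interval of the log2 difference lay within ±0.5 for 44 of the 45 at 24 h and for 44 at 72 h, with a median SE of 0.06 and 0.06. The exception at both times was CTSL, cathepsin L, at 1.30, 1.61 and 2.16 CPM in DMSO and 1.49, 1.35 and 1.40 in cisplatin at 24 h. At 72 h CTSL was at 1.47, 1.82 and 1.43 in DMSO and 2.19, 1.67 and 1.44 in cisplatin. Its libraries overlapped between the treatments and between the times, and the intervals ran from -0.77 to 0.30 at 24 h and from -0.28 to 0.66 at 72 h. At 72 h the unadjusted p values under 0.05 belonged to ATP6V0E1, a V-ATPase subunit (log2 change -0.12, SE 0.05, adjusted p = 0.359), and GABARAPL2, an ATG8 protein (log2 change -0.12, SE 0.06, adjusted p = 0.369).

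At 24 h the libraries of DMSO and cisplatin did not overlap for 1 of the 45 genes, beside 6.42% of all genes tested. This was MAP1LC3B, the ATG8 protein LC3B that is widely used to mark autophagosomes. Its level was 9.32, 10.2 and 10.5 CPM in DMSO and 8.92, 8.86 and 8.46 in cisplatin at 24 h. At 72 h MAP1LC3B was at 10.5, 12.8 and 12.6 in DMSO and 11.1, 11.9 and 12.2 in cisplatin. The 3 cisplatin libraries at 24 h lay below the 3 DMSO libraries, with a log2 change of -0.18 (SE 0.11, adjusted p = 0.9997), and the groups overlapped at 72 h (log2 change -0.04, SE 0.10, adjusted p = 0.913). At 72 h the groups did not overlap for 4 members with higher and 7 with lower levels in cisplatin, beside 18.1% of all genes (8.85% higher and 9.3% lower). Among the lower ones was GABARAPL1, an ATG8 protein, with a log2 change of -0.11 (SE 0.06, adjusted p = 0.408), and among the higher ones TPP1, a tripeptidyl peptidase, at 0.09 (SE 0.05, adjusted p = 0.481). LAMP1, the main glycoprotein of the lysosomal membrane, was at 330.2, 303 and 299 CPM in DMSO and 291, 319.7 and 312 in cisplatin at 24 h. At 72 h LAMP1 was at 338, 325 and 341 in DMSO and 345, 363 and 350.2 in cisplatin. The cisplatin libraries of LAMP1 lay above the DMSO libraries at 72 h and overlapped them at 24 h, with log2 changes of 0.08 (SE 0.05, adjusted p = 0.566) at 72 h and -0.01 (SE 0.05, adjusted p = 0.9997) at 24 h.

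Whether the cisplatin effect differed between the times was tested as an interaction. No gene of the table and none of the 45 was called (0% of 10444 genes, edgeR quasi-likelihood test), and DESeq2 called none either. At an unadjusted p under 0.05 stood 4 members, against 985 of all genes and 5 members by DESeq2. By edgeR they were ATP6V0E1, ATP6V1E1, SQSTM1 and GABARAPL1, and the lowest adjusted p among the 45 was 0.496. The interaction of SQSTM1 was -0.15 (SE 0.07, adjusted p = 0.529) on the log2 scale.

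Between 24 h and 72 h most of the genes rose. With DMSO 30 of the 45 rose, 2 fell and 13 did not pass the test (edgeR quasi-likelihood test, Benjamini-Hochberg adjustment), and with cisplatin 32 rose, 3 fell and 10 did not pass. Of all 10444 genes, 32.6% rose and 32.5% fell with DMSO (65.1% called), and 32% rose and 31.5% fell with cisplatin (63.5% called). The median log2 change of the members was 0.27 in DMSO and 0.29 in cisplatin, beside 0.01 and 0.02 for all genes. The comparisons in DMSO and in cisplatin share no library, and 29 members rose in both, 2 fell in both and 9 were called in neither. Of all genes tested in these comparisons, 27.6% rose in both, 27.6% fell in both and 26.6% were called in neither. No member was called in opposite directions, beside 2 of all genes. The libraries of the times did not overlap for 30 higher and 2 lower members in DMSO, beside 67.4% of all genes in either direction, and for 30 and 3 in cisplatin, beside 67.2%. Over the 45 genes the log2 changes had a Pearson r of 0.957 between the treatments, beside 0.905 over all genes tested. The genes are not independent replicates, and all libraries shared a sequencing lane.

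**Figure D2:**
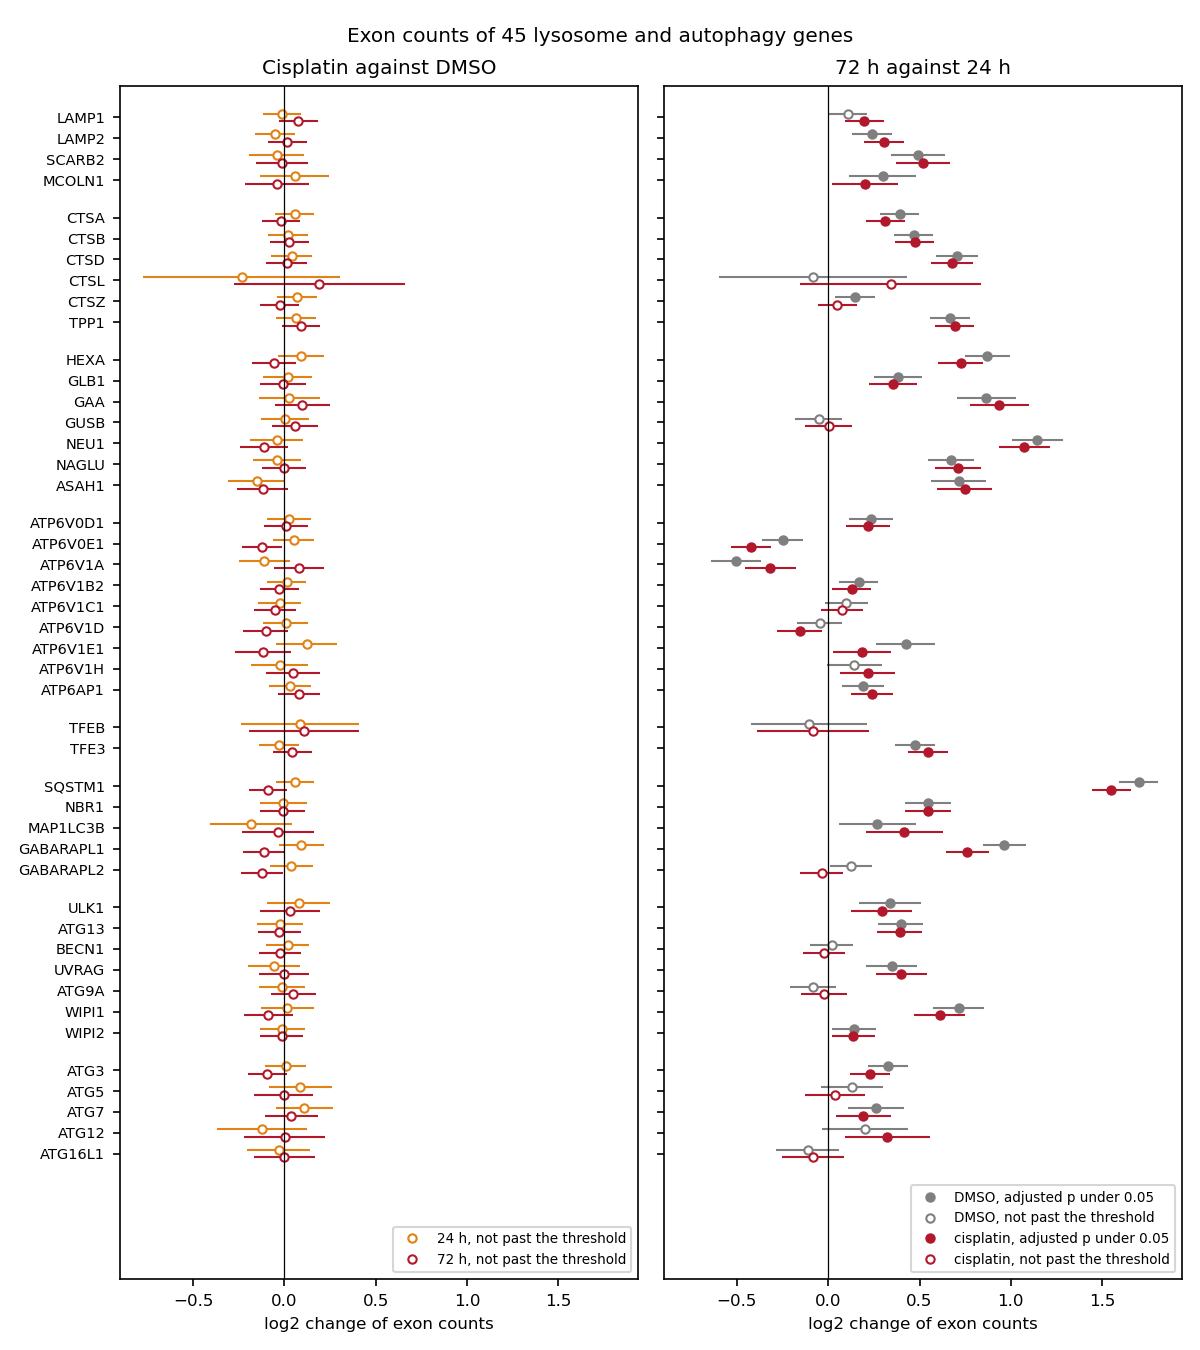
Log2 change of exon counts of the 45 genes, ordered by role, for cisplatin against DMSO (left, at 24 h and 72 h) and for 72 h against 24 h (right, in DMSO and in cisplatin). Points are edgeR estimates, bars 95% intervals, and filled points passed an adjusted p of 0.05; none is filled on the left, and on the right SQSTM1 and NEU1 lie farthest to the right in both treatments while ATP6V1A and ATP6V0E1 lie below 0.

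Of the 5 autophagy receptors and ATG8 proteins, 4 rose in DMSO and 4 in cisplatin, and none fell. That is 80% in each treatment, where 32.6% and 32% of all genes rose and 32.5% and 31.5% fell. SQSTM1 (chr5:179806398-179838078 on GRCh38, plus strand) encodes p62, which binds ubiquitin on cargo and LC3 on the growing membrane. Its level was 547, 524 and 502 CPM in DMSO and 519, 561 and 556 in cisplatin at 24 h. At 72 h SQSTM1 was at 1771, 1685 and 1657 in DMSO and 1509, 1674 and 1611 in cisplatin. Every 72 h library stood above every 24 h library, while DMSO and cisplatin overlapped at each time. SQSTM1 rose by 1.70 (SE 0.05, adjusted p = 5.44e-18) in DMSO and by 1.55 (SE 0.05, adjusted p = 3.29e-17) in cisplatin on the log2 scale, which is 3.25-fold and 2.93-fold and the largest change of the 45 genes in either treatment. NBR1, a receptor with the same kind of cargo and ATG8 contacts, was at 100.3, 106 and 106 CPM in DMSO and 102, 109 and 99.9 in cisplatin at 24 h. At 72 h NBR1 was at 142, 149 and 166 in DMSO and 159, 151 and 144 in cisplatin. The 72 h libraries of NBR1 lay above the 24 h libraries in both treatments, with changes of 0.55 (SE 0.06, adjusted p = 3.41e-08) in DMSO and 0.54 (SE 0.06, adjusted p = 4.06e-08) in cisplatin.

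Of the ATG8 proteins, GABARAPL1 was at 54.2, 55.0 and 60.1 CPM in DMSO and 59.2, 60.1 and 60.8 in cisplatin at 24 h. At 72 h GABARAPL1 was at 107, 115 and 108 in DMSO and 101, 104 and 99.9 in cisplatin. Its 72 h libraries were again all above its 24 h libraries, and the log2 change was 0.96 (SE 0.06, adjusted p = 7.04e-13) in DMSO and 0.76 (SE 0.06, adjusted p = 5.02e-11) in cisplatin. MAP1LC3B, whose levels are given above, rose less, by 0.27 (SE 0.10, adjusted p = 0.025) in DMSO and 0.42 (SE 0.10, adjusted p = 0.00103) in cisplatin. Its call in DMSO was lost without replicate 1 of DMSO at 24 h or replicate 2 or 3 of DMSO at 72 h (adjusted p between 0.0979 and 0.103). GABARAPL2 did not pass, with log2 changes of 0.12 (SE 0.06, adjusted p = 0.0584) in DMSO and -0.04 (SE 0.06, adjusted p = 0.581) in cisplatin, although it passed in DMSO without replicate 2 of DMSO at 24 h or replicate 3 of DMSO at 72 h (adjusted p = 0.0378 and 0.0343, respectively) or with library totals in place of TMM (adjusted p = 0.0426).

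**Figure D3:**
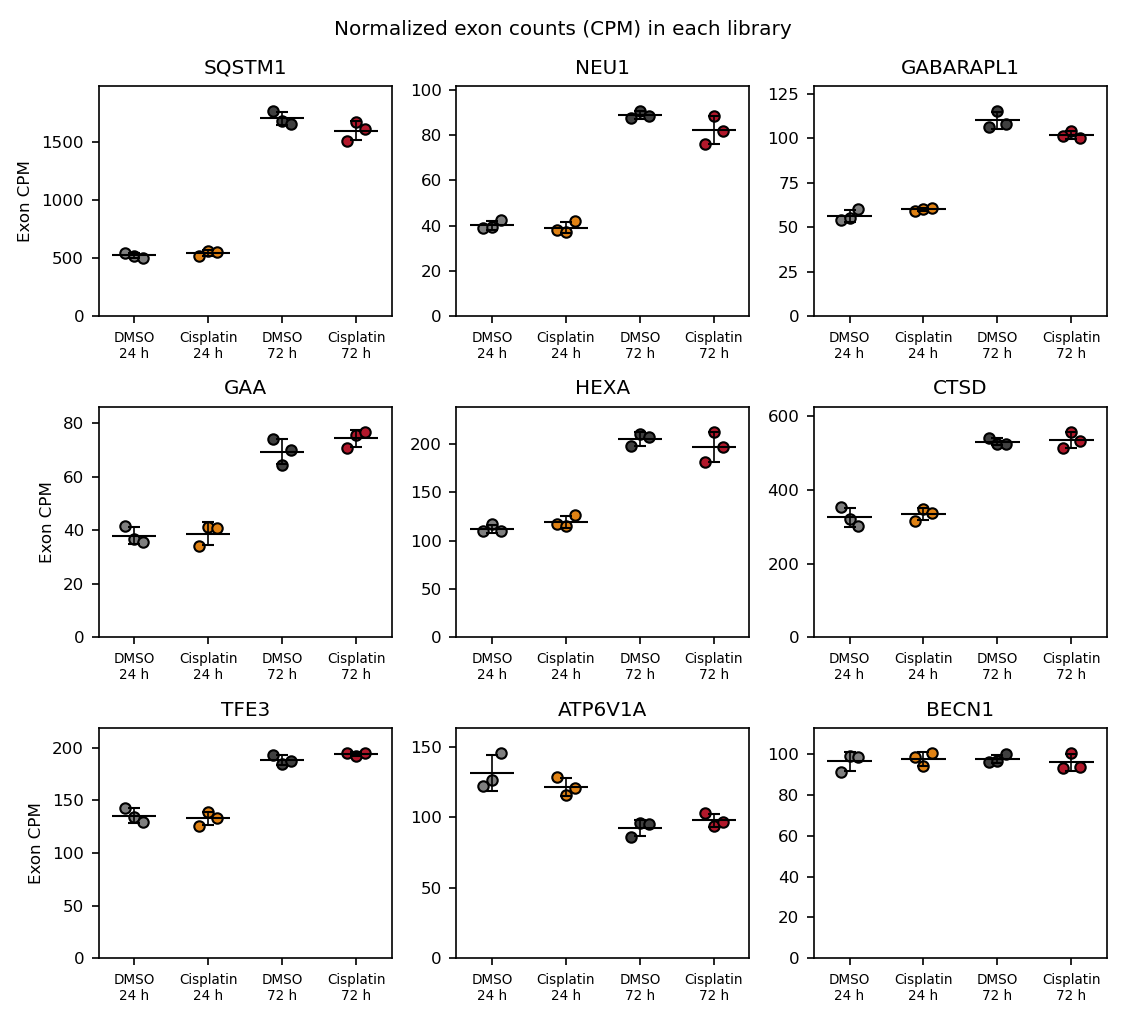
Normalized exon counts (CPM) of 9 of the genes in each library, with the axes starting at 0. Horizontal lines are group means, error bars SD of 3 libraries; SQSTM1, NEU1, GABARAPL1, GAA, HEXA, CTSD and TFE3 are higher and ATP6V1A lower in every 72 h library than in every 24 h library, and BECN1 overlaps in all 4 groups.

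Of the 7 genes of lysosomal glycosidases and the acid ceramidase, 6 (85.7%) rose in DMSO and 6 (85.7%) in cisplatin, and none fell. Among all genes 32.6% and 32% rose, and 32.5% and 31.5% fell. The median log2 change of the 7 genes was 0.71 in DMSO and 0.73 in cisplatin. NEU1, the sialidase that takes terminal sialic acids off glycoproteins, was at 38.8, 39.3 and 42.5 CPM in DMSO and 38.1, 37.2 and 42.0 in cisplatin at 24 h. At 72 h NEU1 was at 87.3, 90.7 and 88.1 in DMSO and 75.9, 88.3 and 81.8 in cisplatin. No 24 h library of NEU1 reached the level of any 72 h library, and the gene rose by 1.15 (SE 0.07, adjusted p = 4.75e-13) in DMSO and by 1.07 (SE 0.07, adjusted p = 1.76e-12) in cisplatin, or 2.21-fold and 2.11-fold. GAA (chr17:80101533-80119881, plus strand), the glucosidase that breaks down lysosomal glycogen, was at 41.7, 36.9 and 35.7 CPM in DMSO and 34.0, 41.4 and 41.03 in cisplatin at 24 h. At 72 h GAA was at 74.0, 64.4 and 70.0 in DMSO and 70.9, 75.5 and 76.9 in cisplatin. Its times were apart in both treatments, with increases of 0.87 (SE 0.08, adjusted p = 9.28e-10) in DMSO and 0.94 (SE 0.08, adjusted p = 2.26e-10) in cisplatin. HEXA, the alpha subunit of the hexosaminidase that degrades gangliosides, was at 109.6, 117 and 109.6 CPM in DMSO and 117, 115 and 126 in cisplatin at 24 h. At 72 h HEXA was at 198, 211 and 207 in DMSO and 182, 213 and 197 in cisplatin. Its 72 h levels were above all its 24 h levels, and it rose by 0.87 (SE 0.06, adjusted p = 7.74e-12) in DMSO and by 0.73 (SE 0.06, adjusted p = 1.93e-10) in cisplatin.

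ASAH1, the acid ceramidase, which frees sphingosine from ceramide, was at 23.2, 25.4 and 23.6 CPM in DMSO and 23.4, 20.7 and 20.8 in cisplatin at 24 h. At 72 h ASAH1 was at 39.99, 39.5 and 39.0 in DMSO and 37.3, 37.2 and 34.4 in cisplatin. The times were apart and, at 72 h, the cisplatin libraries of ASAH1 also lay below the DMSO libraries without passing the test (log2 change -0.12, SE 0.07, adjusted p = 0.481). With time ASAH1 rose by 0.71 (SE 0.07, adjusted p = 6.26e-09) in DMSO and by 0.75 (SE 0.07, adjusted p = 3.49e-09) in cisplatin. NAGLU, which removes N-acetylglucosamine from heparan sulfate, was at 43.4, 44.5 and 41.1 CPM in DMSO and 42.1, 42.1 and 41.4 in cisplatin at 24 h. At 72 h NAGLU was at 70.8, 68.7 and 66.8 in DMSO and 65.5, 72.3 and 67.6 in cisplatin. All NAGLU levels at 72 h were above those at 24 h, and it rose by 0.67 (SE 0.06, adjusted p = 9.81e-10) in DMSO and by 0.71 (SE 0.06, adjusted p = 4.3e-10) in cisplatin. GLB1, the lysosomal beta-galactosidase, was at 36.4, 38.1 and 36.05 CPM in DMSO and 36.2, 39.5 and 36.1 in cisplatin at 24 h. At 72 h GLB1 was at 50.4, 46.7 and 47.1 in DMSO and 48.2, 47.3 and 47.9 in cisplatin. It too was higher in every 72 h library, and rose by 0.38 (SE 0.06, adjusted p = 1.41e-05) in DMSO and by 0.36 (SE 0.06, adjusted p = 3.09e-05) in cisplatin. The exception of the group was GUSB, the beta-glucuronidase, whose exon counts did not pass in either treatment (log2 change -0.05, SE 0.06, adjusted p = 0.472 in DMSO, and 0.003, SE 0.06, adjusted p = 0.969 in cisplatin).

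Of the 6 lysosomal proteases, 5 (83.3%) rose in DMSO and 4 (66.7%) in cisplatin, and none fell. Among all genes 32.6% and 32% rose, and 32.5% and 31.5% fell. The median log2 change of the proteases was 0.43 and 0.41. CTSD (chr11:1752752-1764573, minus strand), cathepsin D, the main aspartic protease of lysosomes, was at 352, 320.5 and 303 CPM in DMSO and 316, 349 and 338 in cisplatin at 24 h. At 72 h CTSD was at 541, 525 and 526 in DMSO and 515, 558 and 532 in cisplatin. The times did not overlap and the treatments did, and CTSD rose by 0.71 (SE 0.06, adjusted p = 8.54e-11) in DMSO and by 0.68 (SE 0.06, adjusted p = 1.89e-10) in cisplatin. TPP1, which removes tripeptides from protein ends, was at 100.1, 103 and 104 CPM in DMSO and 103, 107 and 112 in cisplatin at 24 h. At 72 h TPP1 was at 159, 161 and 168 in DMSO and 169, 169.6 and 181 in cisplatin. Its 72 h libraries were all above its 24 h libraries, and at 72 h the cisplatin libraries were above the DMSO libraries. The change with time was 0.67 (SE 0.05, adjusted p = 8.46e-11) in DMSO and 0.69 (SE 0.05, adjusted p = 4.56e-11) in cisplatin. CTSB, the cysteine protease cathepsin B, was at 214, 219 and 199.7 CPM in DMSO and 206, 225 and 211 in cisplatin at 24 h. At 72 h CTSB was at 289.6, 292 and 294 in DMSO and 287, 312 and 293 in cisplatin. Every 72 h library was above every 24 h library, and CTSB rose by 0.47 (SE 0.05, adjusted p = 2.96e-08) in DMSO and by 0.47 (SE 0.05, adjusted p = 2.59e-08) in cisplatin.

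CTSA, cathepsin A, a carboxypeptidase that also protects NEU1 and GLB1 in a complex, rose by 0.39 (SE 0.05, adjusted p = 4.3e-07) in DMSO and by 0.31 (SE 0.05, adjusted p = 1.05e-05) in cisplatin. CTSZ, another carboxypeptidase, rose in DMSO (log2 change 0.15, SE 0.05, adjusted p = 0.0177) and did not pass in cisplatin (log2 change 0.05, SE 0.05, adjusted p = 0.413). Its call in DMSO was lost without replicate 3 of DMSO at 24 h or replicate 1 of DMSO at 72 h (adjusted p = 0.0851 and 0.0926, respectively). CTSL did not pass in either (log2 change -0.08, SE 0.25, adjusted p = 0.783 in DMSO, and 0.34, SE 0.24, adjusted p = 0.219 in cisplatin). Since the interaction called none of the 45 genes, a call in only 1 of the treatments does not show that the treatments differed.

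Of the 4 membrane proteins, 3 (75%) rose in DMSO and 4 (100%) in cisplatin, beside 32.6% and 32% of all genes. The median log2 change of the 4 was 0.27 and 0.25. SCARB2 (LIMP-2), which carries glucocerebrosidase to the lysosome, changed most. It was at 43.5, 46.0 and 52.1 CPM in DMSO and 46.5, 41.9 and 49.4 in cisplatin at 24 h. At 72 h SCARB2 was at 65.6, 65.0 and 67.7 in DMSO and 67.5, 62.8 and 66.5 in cisplatin. Its times were apart in both treatments, with increases of 0.49 (SE 0.07, adjusted p = 1.82e-06) in DMSO and 0.52 (SE 0.07, adjusted p = 8.1e-07) in cisplatin. MCOLN1, the calcium channel TRPML1, was at 33.8, 32.1 and 27.0 CPM in DMSO and 29.9, 35.8 and 30.9 in cisplatin at 24 h. At 72 h MCOLN1 was at 41.5, 36.3 and 37.1 in DMSO and 33.7, 39.0 and 38.8 in cisplatin. In DMSO its 72 h libraries were above its 24 h libraries, while in cisplatin they overlapped. MCOLN1 rose by 0.30 (SE 0.09, adjusted p = 0.00521) in DMSO and by 0.20 (SE 0.09, adjusted p = 0.0494) in cisplatin. Its call in cisplatin was lost without replicate 1 or 3 of cisplatin at 24 h or replicate 2 or 3 of cisplatin at 72 h (adjusted p between 0.144 and 0.202). The call was also lost with DESeq2 (adjusted p = 0.052), median-of-ratios factors (adjusted p = 0.0543) or the replicate number as a block (adjusted p = 0.0525).

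LAMP2, the partner of LAMP1 that also serves as the receptor of chaperone-mediated autophagy, rose by 0.24 (SE 0.05, adjusted p = 0.00033) in DMSO and by 0.31 (SE 0.05, adjusted p = 1.93e-05) in cisplatin. LAMP1 itself, whose levels are given above, overlapped between the times in DMSO and was apart in cisplatin. Its log2 change was 0.11 (SE 0.05, adjusted p = 0.0684) in DMSO, short of the threshold, and 0.20 (SE 0.05, adjusted p = 0.0018) in cisplatin. In DMSO it passed without replicate 1 of DMSO at 24 h (adjusted p = 0.0161), with library totals in place of TMM (adjusted p = 0.0479) or with counts thinned to the smallest library (adjusted p = 0.0437).

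Of the transcription factors, TFE3 rose and TFEB did not pass the test. TFE3 (chrX:49028726-49043410, minus strand) was at 143, 134 and 129.7 CPM in DMSO and 126, 139 and 134 in cisplatin at 24 h. At 72 h TFE3 was at 193, 184 and 188 in DMSO and 195, 192 and 195 in cisplatin. All of its 72 h libraries were above all of its 24 h libraries, the treatments overlapped, and TFE3 rose by 0.47 (SE 0.05, adjusted p = 3.11e-08) in DMSO and by 0.55 (SE 0.05, adjusted p = 3.46e-09) in cisplatin. TFEB was at 6.98, 6.21 and 6.20 CPM in DMSO and 5.51, 7.83 and 7.12 in cisplatin at 24 h. At 72 h TFEB was at 7.41, 5.08 and 5.64 in DMSO and 7.15, 5.71 and 6.67 in cisplatin. Its groups overlapped in every comparison, and its log2 changes of -0.11 (SE 0.15, adjusted p = 0.559) in DMSO and -0.08 (SE 0.15, adjusted p = 0.634) in cisplatin did not pass. With 95% intervals from -0.43 to 0.21 and from -0.39 to 0.22, changes of TFEB of the size seen for TFE3 lie outside. These are RNA levels, and the activity of both factors depends on where the protein is in the cell, which was not measured in these data.

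Of the 9 V-ATPase genes, 4 (44.4%) rose and 2 (22.2%) fell in DMSO, beside 32.6% and 32.5% of all genes. In cisplatin 5 (55.6%) rose and 3 (33.3%) fell, beside 32% and 31.5%. The list had members in both directions, with a median log2 change of 0.14 and 0.13. ATP6V1A (chr3:113746770-113812056, plus strand), the catalytic subunit that binds ATP, was at 122, 126 and 146 CPM in DMSO and 128, 116 and 121 in cisplatin at 24 h. At 72 h ATP6V1A was at 86.0, 95.9 and 95.2 in DMSO and 103, 93.5 and 96.9 in cisplatin. Every 72 h library was below every 24 h library, and the log2 change was -0.51 (SE 0.07, adjusted p = 4.86e-07) in DMSO and -0.32 (SE 0.07, adjusted p = 0.000224) in cisplatin. ATP6V0E1, a small subunit of the membrane sector, was at 244, 252 and 249.8 CPM in DMSO and 257, 248 and 269 in cisplatin at 24 h. At 72 h ATP6V0E1 was at 204, 220.2 and 204 in DMSO and 178, 199 and 199 in cisplatin. It was lower in all 72 h libraries than in all 24 h libraries, with changes of -0.25 (SE 0.05, adjusted p = 0.000293) in DMSO and -0.42 (SE 0.05, adjusted p = 3.15e-07) in cisplatin. These were the 2 genes of the 45 that fell in both treatments.

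In the other direction, ATP6V1E1, a stalk subunit, rose by 0.43 (SE 0.08, adjusted p = 4.72e-05) in DMSO and by 0.19 (SE 0.08, adjusted p = 0.038) in cisplatin. ATP6AP1, an accessory protein, rose by 0.19 (SE 0.06, adjusted p = 0.00465) in DMSO and by 0.24 (SE 0.06, adjusted p = 0.000626) in cisplatin, and ATP6V0D1, which joins the membrane and cytoplasmic sectors, by 0.24 (SE 0.06, adjusted p = 0.00115) in DMSO and by 0.22 (SE 0.06, adjusted p = 0.00226) in cisplatin. ATP6V1B2, the other subunit of the catalytic ring, rose by 0.17 (SE 0.05, adjusted p = 0.0072) in DMSO and by 0.13 (SE 0.05, adjusted p = 0.0352) in cisplatin. ATP6V1H, a regulatory subunit, passed in cisplatin (log2 change 0.22, SE 0.07, adjusted p = 0.0124) and not in DMSO (log2 change 0.14, SE 0.07, adjusted p = 0.0904). ATP6V1D, a subunit of the central rotor, was lower in cisplatin (log2 change -0.16, SE 0.06, adjusted p = 0.0256) and did not pass in DMSO (log2 change -0.05, SE 0.06, adjusted p = 0.499), and ATP6V1C1 passed in neither (log2 change 0.10, SE 0.06, adjusted p = 0.126 in DMSO, and 0.08, SE 0.06, adjusted p = 0.25 in cisplatin).

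Several of the smaller V-ATPase calls in cisplatin were lost under other settings. The call of ATP6V1B2 was lost without replicate 2 of cisplatin at 24 h or replicate 1, 2 or 3 of cisplatin at 72 h (adjusted p between 0.0626 and 0.19), without a filter on low counts (adjusted p = 0.0581) or with counts thinned to the smallest library (adjusted p = 0.0519). The call of ATP6V1E1 was lost without replicate 1 or 2 of cisplatin at 24 h or replicate 1, 2 or 3 of cisplatin at 72 h (adjusted p between 0.0538 and 0.144) or with counts thinned to the smallest library (adjusted p = 0.053). That of ATP6V1D was lost without replicate 1 or 3 of cisplatin at 24 h or replicate 3 of cisplatin at 72 h (adjusted p between 0.0719 and 0.134) or with library totals in place of TMM (adjusted p = 0.0596). ATP6V1H was no longer called without replicate 2 of cisplatin at 24 h or replicate 1 of cisplatin at 72 h (adjusted p = 0.0739 and 0.0987, respectively). In DMSO, ATP6V1C1 passed without replicate 3 of DMSO at 24 h (adjusted p = 0.0244).

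Of the 7 genes of autophagy initiation, 5 (71.4%) rose in each treatment and none fell. Among all genes 32.6% rose and 32.5% fell in DMSO, and 32% and 31.5% in cisplatin. WIPI1, which reads the phosphoinositide made at the site where autophagosomes form, changed most, at 38.3, 36.6 and 34.97 CPM in DMSO and 34.2, 38.8 and 37.998 in cisplatin at 24 h. At 72 h WIPI1 was at 59.1, 59.99 and 61.1 in DMSO and 56.1, 60.4 and 52.9 in cisplatin. Its times were apart, and it rose by 0.71 (SE 0.07, adjusted p = 2.36e-09) in DMSO and by 0.61 (SE 0.07, adjusted p = 3.16e-08) in cisplatin. ULK1, the kinase that starts autophagy and is inhibited by mTORC1, was at 53.8, 43.9 and 43.2 CPM in DMSO and 49.6, 53.9 and 44.8 in cisplatin at 24 h. At 72 h ULK1 was at 61.2, 54.2 and 62.99 in DMSO and 59.0, 62.7 and 60.6 in cisplatin. All 72 h libraries of ULK1 were above its 24 h libraries, with replicate 2 of cisplatin at 24 h only slightly below the lowest of them. The changes were 0.34 (SE 0.08, adjusted p = 0.000845) in DMSO and 0.29 (SE 0.08, adjusted p = 0.00296) in cisplatin. BECN1, the scaffold of the lipid kinase complex, was at 91.1, 99.3 and 98.8 CPM in DMSO and 98.4, 93.9 and 101 in cisplatin at 24 h. At 72 h BECN1 was at 96.0, 96.8 and 99.9 in DMSO and 93.4, 101 and 93.9 in cisplatin. Its 4 groups overlapped, and its log2 changes were 0.02 (SE 0.06, adjusted p = 0.784) in DMSO and -0.02 (SE 0.06, adjusted p = 0.726) in cisplatin.

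The 95% interval of BECN1 ran from -0.10 to 0.14 in DMSO and from -0.14 to 0.09 in cisplatin. UVRAG, a partner of BECN1, rose by 0.35 (SE 0.07, adjusted p = 9.8e-05) in DMSO and by 0.40 (SE 0.07, adjusted p = 1.69e-05) in cisplatin. ATG13, a partner of ULK1, rose by 0.40 (SE 0.06, adjusted p = 3.04e-06) in DMSO and by 0.39 (SE 0.06, adjusted p = 3.55e-06) in cisplatin. WIPI2, which recruits ATG16L1, rose by 0.14 (SE 0.06, adjusted p = 0.0373) in DMSO and by 0.14 (SE 0.06, adjusted p = 0.0409) in cisplatin. Its call was lost in DMSO without replicate 2 or 3 of DMSO at 24 h or replicate 2 or 3 of DMSO at 72 h (adjusted p between 0.0596 and 0.147) and in cisplatin without replicate 1 or 3 of cisplatin at 24 h or replicate 1 or 2 of cisplatin at 72 h (adjusted p between 0.0709 and 0.201) or without a filter on low counts (adjusted p = 0.0584). ATG9A, the lipid scramblase of the vesicles that seed the membrane, did not pass (log2 change -0.08, SE 0.06, adjusted p = 0.231 in DMSO, and -0.02, SE 0.06, adjusted p = 0.768 in cisplatin), although in DMSO it was called lower without replicate 3 of DMSO at 24 h (adjusted p = 0.0299).

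Of the 5 genes of the conjugation systems, 2 rose in DMSO, 3 rose in cisplatin and none fell, that is, 40% and 60% rose, beside 32.6% and 32% of all genes. ATG3, the enzyme that passes ATG8 to its lipid, was at 75.2, 80.5 and 75.9 CPM in DMSO and 78.1, 76.0 and 79.0 in cisplatin at 24 h. At 72 h ATG3 was at 97.4, 98.2 and 95.4 in DMSO and 90.9, 90.8 and 90.9 in cisplatin. Its 72 h libraries were above its 24 h libraries in both treatments and, at 72 h, the cisplatin libraries were below the DMSO libraries (log2 change -0.09, SE 0.05, adjusted p = 0.469). With time ATG3 rose by 0.33 (SE 0.05, adjusted p = 9.29e-06) in DMSO and by 0.23 (SE 0.05, adjusted p = 0.00068) in cisplatin. ATG7, the activating enzyme, rose by 0.26 (SE 0.07, adjusted p = 0.00329) in DMSO and by 0.19 (SE 0.07, adjusted p = 0.0242) in cisplatin. ATG12, the ubiquitin-like protein that is joined to ATG5, passed in cisplatin (log2 change 0.32, SE 0.11, adjusted p = 0.0157) and not in DMSO (log2 change 0.20, SE 0.11, adjusted p = 0.13). ATG5 (log2 change 0.13, SE 0.08, adjusted p = 0.176 in DMSO, and 0.04, SE 0.08, adjusted p = 0.706 in cisplatin) and ATG16L1 (log2 change -0.11, SE 0.08, adjusted p = 0.239 in DMSO, and -0.08, SE 0.08, adjusted p = 0.389 in cisplatin) passed in neither. In cisplatin the call of ATG7 was lost without replicate 2 or 3 of cisplatin at 24 h or replicate 1 of cisplatin at 72 h (adjusted p between 0.0538 and 0.158) and that of ATG12 without replicate 3 of cisplatin at 72 h (adjusted p = 0.063). ATG12 passed in DMSO without replicate 1 of DMSO at 24 h (adjusted p = 0.0172).

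Lists of other genes of the same pathways, which hold none of the 45, were counted in the same way. Of all genes tested, 32.6% rose and 32.5% fell in DMSO, and 32% rose and 31.5% fell in cisplatin. Of the other lysosomal hydrolases and their activators, 22 of 36 tested (61.1%) rose and 8 fell in DMSO, and 21 (58.3%) rose and 7 fell in cisplatin. Among those called in both treatments, the largest changes were those of IDUA, which degrades dermatan and heparan sulfate (log2 change 1.02 and 1.14 in DMSO and cisplatin), NPC2, which moves cholesterol out of the lumen (0.92 and 0.89), and CTSF, a cysteine cathepsin (0.93 and 0.73). Of the other membrane and delivery proteins, 14 of 23 tested (60.9%) rose and 2 fell in DMSO, and 12 (52.2%) rose and 2 fell in cisplatin. Here CLCN7, the chloride exchanger (1.17 and 1.17), CTNS, the cystine exporter (0.99 and 0.99), and GNPTG, a subunit of the enzyme that tags hydrolases with mannose 6-phosphate (0.79 and 0.65), led the genes called in both. Of the other V-ATPase subunits, 5 of 12 tested (41.7%) rose and 1 fell in DMSO, and 5 (41.7%) rose and 1 fell in cisplatin, and ATP6V1G2 (0.93 and 0.63), ATP6V1E2 (0.66 and 0.67) and ATP6V1G1 (0.65 and 0.38) changed most.

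Of the other autophagy genes, 22 of 38 tested (57.9%) rose and 4 fell in DMSO, and 20 (52.6%) rose and 3 fell in cisplatin. OPTN, a cargo receptor, had log2 changes of 1.73 and 1.54 in DMSO and cisplatin, near those of SQSTM1, followed by MAP1LC3A, a further LC3 protein (1.29 and 1.26), and WDR45, a relative of WIPI1 (1.18 and 1.05). Of the genes of mTORC1 and nutrient sensing, 14 of 26 tested (53.8%) rose and 5 fell in DMSO, and 14 (53.8%) rose and 6 fell in cisplatin. SESN2, an inhibitor of mTORC1 that senses leucine, changed by 2.41 and 2.40, DDIT4, another inhibitor that is induced by stress, by 1.46 and 1.34, and FLCN, which acts on the RAG GTPases, by 1.20 and 1.16. The targets of p53, which respond to DNA damage in cells with a working p53, were taken as a list for the drug. They share SESN1 and SESN2 with the mTORC1 list. CDKN1A of the p53 list and TSC1 of the mTORC1 list were not analysed here. Of the p53 targets, 5 of 13 tested (38.5%) rose and 0 fell in DMSO, and 5 (38.5%) rose and 0 fell in cisplatin. The shares of the V-ATPase subunits and of the p53 targets that rose were the nearest to those of all genes. The shares that fell were not near, at 8.33% of the V-ATPase subunits and 0% of the p53 targets in each treatment. Among all genes 32.5% fell in DMSO and 31.5% in cisplatin. Cisplatin against DMSO called no gene of any of these lists at 24 h or 72 h by edgeR. At 72 h an unadjusted p under 0.05 was found for 1 of 36 hydrolases, 6 of 23 membrane and delivery proteins, 3 of 12 V-ATPase subunits, 8 of 38 autophagy genes, 4 of 26 mTORC1 genes and 1 of 13 p53 targets, beside 12.6% of all genes. At 24 h it was found for 0 genes of these lists.

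**Figure D4:**
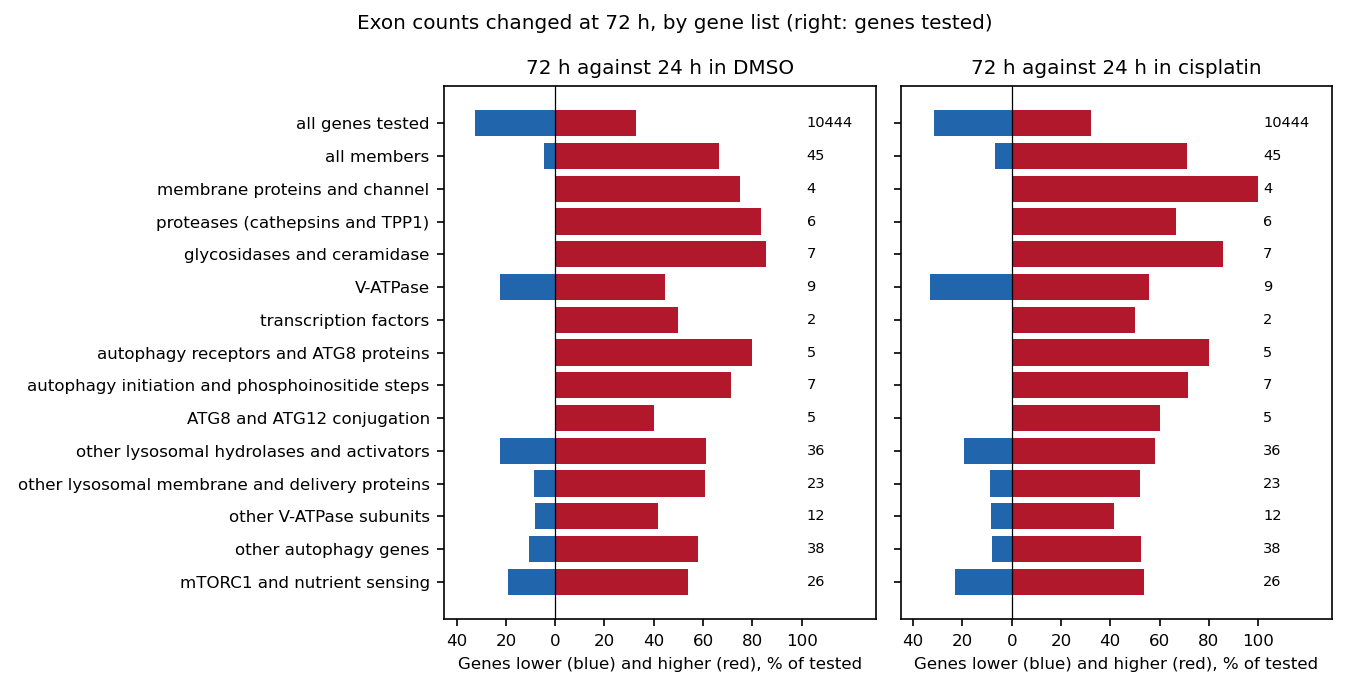
Share of the tested genes of each list (%) whose exon counts were higher (red, to the right) or lower (blue, to the left) at 72 h than at 24 h by edgeR at an adjusted p of 0.05, in DMSO (left) and cisplatin (right). Numbers give the genes tested; of all 10444 genes about as many rose as fell, whereas in most of the lists the red bar is the longer one.

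Intron counts are fragments that map to introns, and the study compared them with exon counts to look for incomplete splicing. The source of these fragments was not tested. Of the counts of the 45 genes, between 3.59% and 4.44% per library were intron counts, less than in the whole table. The lowest value, 3.59%, had a 95% Wilson interval of 3.50% to 3.69%, and the highest, 4.44%, one of 4.35% to 4.54%, which cover counting error only. The group means were 3.82% ± 0.227 (SD, n = 3) and 4.05% ± 0.342 in DMSO and cisplatin at 24 h, and 3.83% ± 0.0512 and 4.02% ± 0.1102 at 72 h. Of the 45 genes, SCARB2, MCOLN1, CTSA, CTSZ, GLB1, ATP6V1D, SQSTM1, MAP1LC3B, ATG13, BECN1, WIPI1, ATG3, ATG5, ATG7 and ATG12 overlap another gene of the table in the annotation. The strand option of the counting is not given in the sources used here, so their counts, and intron counts above all, may include fragments of the neighbour.

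By intron counts, too, no member was called for cisplatin against DMSO at 24 h or 72 h (edgeR quasi-likelihood test over 9618 genes, 0.0208% and 0.0416% of which were called). At an unadjusted p under 0.05 stood 1 member at 24 h, against 481 of all 9618 genes, and 1 at 72 h, against 621. They were UVRAG at 24 h (log2 change -0.40, SE 0.18, adjusted p = 0.942) and ATG9A at 72 h (log2 change -0.38, SE 0.14, adjusted p = 0.641). DESeq2 called none of the 45 at either time. With time, 20 rose and 3 fell in DMSO, where 17.2% of all genes rose and 16.2% fell (33.4% called), and 16 rose and 2 fell in cisplatin, where 16.4% rose and 15.4% fell (31.8% called). The members' median log2 change was 0.31 and 0.36, beside -0.01 and -0.02 for all genes. With library totals in place of TMM the median of all genes moved to -0.15 and -0.12. The split over all genes then went from 1658 higher and 1558 lower to 1183 and 2331 in DMSO, and from 1580 and 1482 to 1169 and 2060 in cisplatin. On that scale 15 members rose and 4 fell in DMSO, and 15 rose and 3 fell in cisplatin, with member medians of 0.17 and 0.26.

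SQSTM1, GAA and CTSD were among the members whose intron counts rose in both treatments. SQSTM1 was at 308, 261 and 273 intron CPM in DMSO and 272, 295 and 299 in cisplatin at 24 h. Intron counts of SQSTM1 at 72 h were at 976, 938 and 962 in DMSO and 890.5, 932 and 948 in cisplatin. Its 72 h libraries were all above its 24 h libraries, and its intron counts rose by 1.77 (SE 0.09, adjusted p = 2.61e-23) in DMSO and by 1.68 (SE 0.09, adjusted p = 1.94e-22) in cisplatin, close to the change of its exon counts. GAA was at 72.04, 75.9 and 58.1 intron CPM in DMSO and 70.4, 92.3 and 74.4 in cisplatin at 24 h. Intron counts of GAA at 72 h were at 204, 170.0 and 173 in DMSO and 156, 187 and 173 in cisplatin. Its times were apart, with increases of 1.39 (SE 0.13, adjusted p = 6.84e-13) in DMSO and 1.10 (SE 0.13, adjusted p = 3.05e-10) in cisplatin. CTSD was at 51.9, 38.7 and 48.2 intron CPM in DMSO and 38.9, 49.9 and 52.1 in cisplatin at 24 h. Intron counts of CTSD at 72 h were at 102, 101 and 118 in DMSO and 113, 111 and 102 in cisplatin. It too was higher in every 72 h library, and rose by 1.22 (SE 0.15, adjusted p = 2.62e-09) in DMSO and by 1.21 (SE 0.15, adjusted p = 1.62e-09) in cisplatin. TPP1 (1.02 and 0.76), CTSA (0.85 and 0.85) and TFE3 (0.78 and 0.49) also rose in both treatments, as did NEU1 (1.001 and 0.93), which has few intron counts (9 to 79 per library). The intron call of NEU1 was lost in DMSO without replicate 3 of DMSO at 24 h or replicate 1 of DMSO at 72 h (adjusted p = 0.0681 and 0.0694, respectively) and in cisplatin without replicate 2 of cisplatin at 24 h or replicate 1 or 2 of cisplatin at 72 h (adjusted p between 0.084 and 0.245) or with counts thinned to the smallest library (adjusted p = 0.119).

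Intron counts fell for GUSB and ATG16L1 in both treatments and for GLB1 in DMSO. GUSB was at 153, 166 and 161 intron CPM in DMSO and 165, 208 and 167 in cisplatin at 24 h. Intron counts of GUSB at 72 h were at 127, 107 and 106 in DMSO and 116, 118 and 130.0 in cisplatin. Its 72 h libraries were below all of its 24 h libraries, with log2 changes of -0.50 (SE 0.12, adjusted p = 0.000661) in DMSO and -0.58 (SE 0.11, adjusted p = 4.29e-05) in cisplatin, while its exon counts did not pass. GLB1 was at 73.6, 64.7 and 58.8 intron CPM in DMSO and 59.5, 64.1 and 68.6 in cisplatin at 24 h. Intron counts of GLB1 at 72 h were at 49.3, 39.2 and 55.3 in DMSO and 50.004, 50.6 and 52.9 in cisplatin. Its intron counts were lower at 72 h in each treatment, with log2 changes of -0.45 (SE 0.16, adjusted p = 0.0275) in DMSO and -0.32 (SE 0.16, adjusted p = 0.106) in cisplatin, of which the one in cisplatin did not pass except with library totals in place of TMM (adjusted p = 0.0311). The call in DMSO was lost without replicate 1 or 2 of DMSO at 24 h or replicate 2 of DMSO at 72 h (adjusted p between 0.0522 and 0.166). GLB1 was the only member called in opposite directions in exon and intron counts, in DMSO, beside 138 of 9156 genes (1.51%) tested for both. In cisplatin it was 0 members, beside 1.7% of these genes. TMPPE lies within the span of GLB1 on the same strand. ATG16L1 had log2 changes of -0.56 (SE 0.17, adjusted p = 0.00696) in DMSO and -0.48 (SE 0.16, adjusted p = 0.0158) in cisplatin. Its calls were lost in DMSO without replicate 1 of DMSO at 24 h (adjusted p = 0.13) and in cisplatin without replicate 3 of cisplatin at 24 h or replicate 1 of cisplatin at 72 h (adjusted p = 0.155 and 0.0535, respectively).

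Over the 45 genes, exon and intron log2 changes had a Pearson r of 0.656 in DMSO and 0.661 in cisplatin, beside 0.734 and 0.724 over 9156 genes. These are correlations across genes, which are not independent replicates, and both counts of a gene come from the same libraries. Of the members, 17 rose by both counts in DMSO and 16 in cisplatin, while 12 and 16 rose by exon counts and were not called by intron counts, which are far fewer. Of the 9156 genes tested for both, 13.3% and 12.4% rose by both counts, and 19.1% and 19% rose by exon counts alone, where the members' shares were 37.8% and 35.6%, and 26.7% and 35.6%.

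The exon/intron ratio, that is, exon counts divided by intron counts of a gene in a library, was tested in 9380 genes with edgeR, in a fit that includes the spread between replicates. For cisplatin against DMSO no member was called at 24 h (0% of all genes) or at 72 h (0.0213%). At 24 h, 2 members had an unadjusted p under 0.05, against 594 of all genes: SCARB2 (log2 change -0.72, SE 0.28, adjusted p = 0.761) and TFE3 (log2 change -0.42, SE 0.17, adjusted p = 0.761). At 72 h they were ATG9A (log2 change 0.34, SE 0.15, adjusted p = 0.772) and WIPI1 (log2 change -0.33, SE 0.14, adjusted p = 0.757), with 585 of all genes. The median log2 change of the ratio was -0.13 at 24 h and -0.09 at 72 h for the members, and -0.09 and -0.08 for all genes. With time, 4 members rose and 2 fell in DMSO, with 8.09% of all genes higher and 3.37% lower (11.5% called), and 2 rose and 4 fell in cisplatin, with 8.36% and 3.56% (11.9% called). The median over all genes was 0.10 and 0.11, and that over the members -0.002 and 0.13.

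GLB1 and GUSB had higher ratios at 72 h in both treatments. For GLB1 the ratio was 6.82, 8.60 and 8.06 exon counts per intron count in DMSO and 7.96, 7.60 and 7.45 in cisplatin at 24 h. GLB1 at 72 h had 15.1, 17.3 and 12.2 in DMSO and 13.6, 12.9 and 12.1 in cisplatin. All 72 h libraries were above all 24 h libraries, and its log2 change was 0.90 (SE 0.17, adjusted p = 0.00077) in DMSO and 0.75 (SE 0.16, adjusted p = 0.00277) in cisplatin. For GUSB the changes were 0.52 (SE 0.16, adjusted p = 0.0288) in DMSO and 0.65 (SE 0.15, adjusted p = 0.00465) in cisplatin. For ATG3 it was 21.1, 20.6 and 13.95 exon counts per intron count in DMSO and 19.2, 25.4 and 15.7 in cisplatin at 24 h. ATG3 at 72 h had 26.7, 32.8 and 36.9 in DMSO and 29.5, 26.3 and 28.5 in cisplatin. It was higher at 72 h than at 24 h in each treatment, and the change passed in DMSO (log2 change 0.81, SE 0.19, adjusted p = 0.00612) and not in cisplatin (log2 change 0.49, SE 0.18, adjusted p = 0.0841). WIPI1 rose in DMSO (log2 change 0.47, SE 0.15, adjusted p = 0.0404) and did not pass in cisplatin (log2 change 0.20, SE 0.15, adjusted p = 0.417).

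Ratios fell for CTSD in both treatments, with log2 changes of -0.45 (SE 0.15, adjusted p = 0.0446) in DMSO and -0.46 (SE 0.14, adjusted p = 0.0332) in cisplatin, so its intron counts rose by more than its exon counts. The ratio of GAA fell in DMSO (log2 change -0.46, SE 0.15, adjusted p = 0.0433) and did not pass in cisplatin (log2 change -0.10, SE 0.14, adjusted p = 0.72). That of CTSA fell in cisplatin (log2 change -0.48, SE 0.15, adjusted p = 0.0396) and did not pass in DMSO (log2 change -0.39, SE 0.15, adjusted p = 0.0998). In ATP6V1A the ratio was 245, 302 and 193 exon counts per intron count in DMSO and 267, 197 and 188 in cisplatin at 24 h. ATP6V1A at 72 h had 114, 158 and 153 in DMSO and 101, 118 and 111 in cisplatin. Its 72 h libraries were below its 24 h libraries in each treatment, with log2 changes of -0.78 (SE 0.29, adjusted p = 0.0823) in DMSO and -0.96 (SE 0.25, adjusted p = 0.013) in cisplatin. In ATP6V0E1 it was 277, 425 and 579.5 exon counts per intron count in DMSO and 419.5, 529 and 354 in cisplatin at 24 h. ATP6V0E1 at 72 h had 302, 323 and 294 in DMSO and 299, 237 and 205 in cisplatin. The times overlapped in DMSO and were apart in cisplatin, with changes of -0.32 (SE 0.29, adjusted p = 0.527) in DMSO and -0.84 (SE 0.27, adjusted p = 0.0376) in cisplatin. Both ratios rest on few intron counts, 11 to 51 per library for ATP6V1A and 8 to 54 for ATP6V0E1. For SQSTM1, whose exon and intron counts rose alike, the log2 change of the ratio was -0.002 (SE 0.09, adjusted p = 0.994) in DMSO and -0.06 (SE 0.10, adjusted p = 0.748) in cisplatin.

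**Figure D5:**
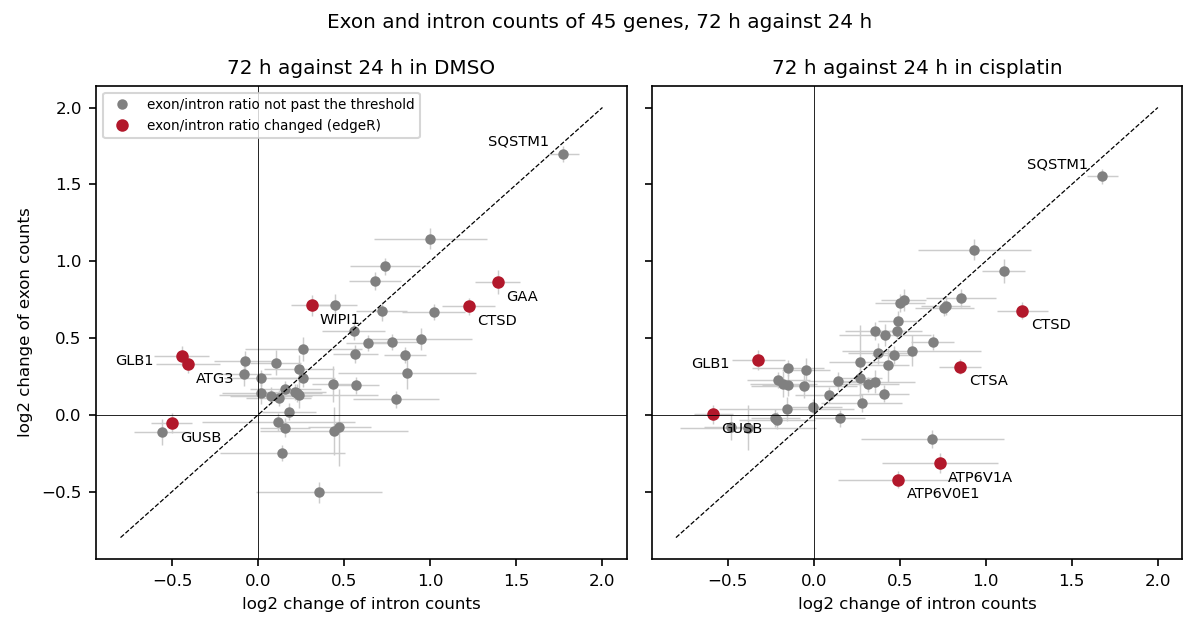
Log2 change of exon counts (vertical) against that of intron counts (horizontal) for the 45 genes, 72 h against 24 h, in DMSO (left) and cisplatin (right). Bars are SE, the dashed line marks equal change and red points changed in exon/intron ratio by edgeR; SQSTM1 lies near the line at the upper right, GLB1 above it, and CTSD below it.

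All of the ratio calls other than those of GLB1 were lost when some library was left out. In DMSO the call of GLB1 held under all alternatives, whereas that of ATG3 was lost without replicate 3 of DMSO at 24 h (adjusted p = 0.0525), that of GUSB without replicate 1, 2 or 3 of DMSO at 24 h or replicate 2 or 3 of DMSO at 72 h (adjusted p between 0.0557 and 0.123), and that of WIPI1 without replicate 2 or 3 of DMSO at 24 h or replicate 1, 2 or 3 of DMSO at 72 h (adjusted p between 0.0509 and 0.194). CTSD was not called without replicate 1 or 2 of DMSO at 24 h or replicate 1, 2 or 3 of DMSO at 72 h (adjusted p between 0.0506 and 0.252) or in a fit to the 6 libraries compared (adjusted p = 0.0507), nor GAA without any 1 of the 6 libraries (adjusted p between 0.053 and 0.131) or with a looser filter on low counts (adjusted p = 0.0574). In cisplatin GLB1 again held under all alternatives, and the call of GUSB was lost without replicate 2 of cisplatin at 24 h (adjusted p = 0.0621). ATP6V1A was not called without replicate 1 of cisplatin at 24 h or replicate 1 of cisplatin at 72 h (adjusted p = 0.0732 and 0.0505, respectively), nor ATP6V0E1 without replicate 1 or 2 of cisplatin at 24 h or replicate 2 or 3 of cisplatin at 72 h (adjusted p between 0.0791 and 0.197). The call of CTSA was lost without replicate 1 or 3 of cisplatin at 24 h or replicate 2 or 3 of cisplatin at 72 h (adjusted p between 0.0882 and 0.203) or in a fit to the 6 libraries compared (adjusted p = 0.0564) and that of CTSD without replicate 1 or 3 of cisplatin at 24 h or replicate 1, 2 or 3 of cisplatin at 72 h (adjusted p between 0.0502 and 0.14).

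The ratio was also tested by a logistic regression per gene, the kind of test the study used. It takes each fragment as an independent draw and leaves out the spread between replicates. At 24 h it called 6 members lower and 0 higher in cisplatin than in DMSO, beside 11.5% of all genes (10.7% lower). They were SCARB2 (-0.73), TFE3 (-0.44), CTSZ (-0.40), TPP1 (-0.40), GUSB (-0.33) and GAA (-0.31), each as a log2 change of the ratio. Of these, SCARB2 alone had ratios that did not overlap between the groups, as 9.53% of all genes did. They were 59.6, 66.0 and 87.9 exon counts per intron count in DMSO and 46.2, 34.8 and 49.8 in cisplatin, on 11 to 41 intron counts per library. Without replicate 2 of cisplatin at 24 h, 0 of the 6 were called and 1 other member was called higher. At 72 h it called 1 member higher, ATG9A (0.34), and 2 lower, SQSTM1 (-0.10) and WIPI1 (-0.33), beside 11.4% of all genes. No member was called at both times. With time it called 9 higher and 6 lower in DMSO (33.7% of all genes), and 12 and 5 in cisplatin (40.6%). When the spread between replicates was put into the same model (quasi-binomial), 0 members were called for cisplatin at 24 h, 0 at 72 h, 0 with time in DMSO and 1 with time in cisplatin.

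TFEB and TFE3 are known to bind the E-box CACGTG, best within TCACGTGA, so the promoters that hold the longer motif are shown. RefSeq windows of 300 bases, 250 before and 50 from the transcription start on GRCh38.p14, were matched for 34 of the 45 genes, and LAMP2, CTSB, HEXA, NAGLU, ASAH1, ATP6V0E1, ATP6V1A, ATP6V1B2, ATP6V1C1, ATP6V1H and UVRAG had no entry. CACGTG was found in 8 of 34 (23.5%), against 2030 of 27305 (7.43%) of all promoters of that length, and TCACGTGA, which contains it, in 6 of 34 (17.6%) against 283 of 27305 (1.04%). Both motifs read the same on either strand. The 6 promoters with TCACGTGA are printed 5′ to 3′ for the 100 bases before and the 20 bases from the start, with each TCACGTGA, and CACGTG where it stands alone, in capitals.

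ATG3 (chr3:112561943-112562062, minus strand): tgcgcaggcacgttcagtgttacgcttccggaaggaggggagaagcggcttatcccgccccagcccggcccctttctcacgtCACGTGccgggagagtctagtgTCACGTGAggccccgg
ATP6V0D1 (chr16:67481138-67481257, minus strand): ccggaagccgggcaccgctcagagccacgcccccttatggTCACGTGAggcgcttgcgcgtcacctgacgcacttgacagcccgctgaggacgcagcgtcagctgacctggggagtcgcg
CTSA (chr20:45891235-45891354, plus strand): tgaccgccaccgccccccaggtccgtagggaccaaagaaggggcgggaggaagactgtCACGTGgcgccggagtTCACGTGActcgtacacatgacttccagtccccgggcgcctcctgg
GAA (chr17:80101481-80101600, plus strand): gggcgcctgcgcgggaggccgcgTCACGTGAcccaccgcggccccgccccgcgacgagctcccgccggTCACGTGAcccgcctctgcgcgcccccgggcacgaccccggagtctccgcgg
LAMP1 (chr13:113297139-113297258, plus strand): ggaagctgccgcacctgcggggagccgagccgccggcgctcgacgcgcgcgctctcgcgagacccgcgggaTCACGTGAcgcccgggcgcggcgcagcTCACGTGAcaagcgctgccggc
MCOLN1 (chr19:7522524-7522643, plus strand): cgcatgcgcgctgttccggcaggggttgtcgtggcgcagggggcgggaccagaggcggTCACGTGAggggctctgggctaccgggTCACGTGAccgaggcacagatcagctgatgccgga

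Of these 6 genes, 5 rose in DMSO and 6 in cisplatin, with a median log2 change of exon counts of 0.31 and 0.22. Of the 28 genes whose window lacks it, 18 rose in DMSO and 18 in cisplatin, with medians of 0.27 and 0.31. For the shorter CACGTG, 7 and 8 of the 8 genes that hold it rose in DMSO and in cisplatin (medians 0.36 and 0.27), and 16 and 16 of the 26 that lack it (medians 0.23 and 0.27). GAA, LAMP1 and MCOLN1 hold the longer motif at 2 places each, and GAA rose by 0.87 and 0.94, while the log2 changes were 0.11 and 0.20 for LAMP1 and 0.30 and 0.20 for MCOLN1. SQSTM1 and NEU1, with the largest changes, have no TCACGTGA in their windows, although NEU1 holds CACGTG. A match is a string of letters in a window, and factor binding was not measured in these data.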

How the data were processed

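Whole-number fragment counts over exons and introns, per gene and library, were deposited. The authors made these counts by trimming reads with Trim Galore 0.6.0 (quality checks with FastQC 0.11.8), aligning them to GRCh38 with HISAT2 2.1.0 and counting with HTSeq-count on Ensembl release 98 annotations. Exons were counted in intersection-strict mode, introns in union mode. The counts were neither normalized nor pooled over replicates. The library kit was directional.

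Ensembl identifiers were looked up in GENCODE release 44 (GRCh38) for symbols and positions. Exon counts, intron counts and the exon/intron ratio were each tested by the quasi-likelihood functions of edgeR 4.0.16 (R 4.3.3) on all 12 libraries, with Benjamini-Hochberg adjustment over all genes tested at a threshold of 0.05. For exon and intron counts, genes were kept by filterByExpr and scaled by TMM. The ratio model gave every library a term of its own and was run on genes with 10 or more counts of each kind in 3 or more libraries. The logistic regression (Wald test) was run where all 6 libraries compared had 1 or more counts of each kind. Python 3.11.15, pandas 2.3.3, scipy 1.17.1 and matplotlib 3.10.9 were used for shares, Wilson intervals at 95% and plots. The test code was checked on simulated data. Totals of 18526830 to 68753262 counts per library limit the precision of intron counts of these genes more than that of exon counts, and with no molecular identifiers in the reads, Wilson intervals cover counting error only.

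The members are a list of symbols and no measured value enters the rule, but they and the other pathway lists were drawn up with earlier results of these data known. Values in every library were given for LAMP1, CTSD, TFEB, TFE3, MCOLN1, SQSTM1, MAP1LC3B, BECN1 and ULK1, for the 14 members with the largest mean change of exon counts among those called in both time comparisons, and for the 4 with the largest called change of the ratio. CTSL, SCARB2 ratios and the intron levels of single members were added after their values were seen. Of the other lists, the 3 genes with the largest mean change among those called in both time comparisons were named. Alternatives were DESeq2 1.42.0, median-of-ratios factors, other filters on low counts, a fit to the 6 libraries compared, the replicate number as a block, a quasi-binomial model and leaving out each library in turn. Library totals without TMM and counts thinned to the smallest library were chosen after seeing the data. Libraries of a group differed by more than sampling noise, so none was counted as a duplicate.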

Additional observations from a re-analysis of the deposited data

How the results depend on the processing

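No member called by exon counts, intron counts or the edgeR ratio changed sign under any alternative. Members not called did, among them CTSL, whose exon change in DMSO ran from -0.24 to 0.10, and TFEB, whose intron change in DMSO ran from -0.38 to 0.78. For exon counts, cisplatin called 0 of the 45 genes at 24 h and at 72 h under all alternatives run, leaving out single libraries included. The time comparisons without single libraries called 30 to 33 in DMSO and 30 to 31 in cisplatin. Of the single calls by exon counts, 29 of 32 in DMSO and 27 of 35 in cisplatin held under every alternative. Without single libraries, intron counts gave 0 for cisplatin at both times and 19 to 21 and 15 to 18 with time in each treatment, and 14 of 23 and 14 of 18 single calls held. The edgeR ratio test gave 0 for cisplatin at both times. For time in DMSO it called 2 to 3 in place of 6 whichever library was left out, with the lowest count without replicate 2 or 3 of DMSO at 72 h, and only GLB1 held under every alternative. In cisplatin it called 2 to 5 in place of 6, with 2 without replicate 1 of cisplatin at 24 h and 3 without replicate 2 or 3 of cisplatin at 72 h. The logistic regression depended on its treatment of replicates: the quasi-binomial model called 0 members in place of 6 for cisplatin at 24 h, 0 in place of 3 at 72 h, 0 in place of 15 for time in DMSO and 1 in place of 17 in cisplatin, and over all genes 0, 0, 64 and 97. By construction that model adds the spread between replicates. Leaving out single libraries, the logistic regression called 1 to 7 and 2 to 5 for cisplatin and 14 to 18 and 14 to 19 for time. At 24 h the whole set gave 0 higher and 6 lower. Without replicate 2 of cisplatin it gave 1 higher and 0 lower, so all of the lower calls were lost. The count was 3 without replicate 1 of DMSO and 2 without replicate 2 of DMSO, and at 72 h 5 without replicate 2 of cisplatin and 5 without replicate 2 of DMSO. The cause was not tested.

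Over all genes, exon counts for cisplatin at 72 h gave 3 calls by edgeR, 55 by DESeq2 and 154 without a filter, and at 24 h 7 without a filter. At 72 h it was 1, 9 and 0 without replicate 1, 2 and 3 of cisplatin, and 72 without replicate 3 of DMSO. At 24 h it was 0 to 1 without single libraries. Intron counts at 24 h gave 2, with 0 by DESeq2 and 5 without a filter, and at 72 h 4, with 19 without a filter, 26 in a fit to 6 libraries and 7 with thinned counts. Without single libraries intron counts gave 0 to 2 at 24 h and 3 to 9 at 72 h, and the edgeR ratio 0 at 24 h and 1 to 4 at 72 h. The ratio with the loosest filter gave 2 and 13 in place of 0 and 2.

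Whether the replicate numbers pair the libraries is not stated, and the main tests did not use them. Deviations of same-numbered libraries from their group means correlated between -0.203 and 0.0573 across the treatments. Across the times these correlations lay between 0.00594 and 0.131, all of them above 0. With 3 libraries per group, such values cannot decide whether the numbers are pairs. With the replicate block, members called were 0, 0, 32 and 34 by exon counts (cisplatin at 24 h and 72 h, time in DMSO and in cisplatin), 0, 0, 23 and 18 by intron counts, 0, 0, 4 and 5 by the edgeR ratio, 3, 3, 17 and 17 by logistic regression, and 0 for the interaction. With this block the exon call of MCOLN1 in cisplatin (adjusted p = 0.0525) and the ratio calls of CTSD (0.065) and WIPI1 (0.0538) in DMSO and of ATP6V0E1 (0.0509) in cisplatin were lost, and no other member gained or lost a call by edgeR. For the logistic regression at 24 h this is 3 in place of 6.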
